A study of Homo sapiens with 9 samples.

Results

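The genes described here are 42 genes of fatty acid metabolism, taken by name and grouped by role: 7 of synthesis, 5 of desaturation, 9 of elongation, 5 of activation, 8 of storage and 8 of oxidation. All 42 were among the 60671 genes counted, and 41 passed the filter on low counts that left 13390 genes for testing. PLIN2 did not pass it. In SGPL1 KO cells 5 of the 7 synthesis genes fell, among them FASN and ACACA, while 5 of the 8 oxidation genes rose, among them ACADM and HADHB, where 25.9% of all tested genes fell and 26.0% rose. The rises of the oxidation genes CPT2 and CRAT were lost when some single libraries were left out. CPT1A and ACADVL fell, and CPT1A, at a log2 fold change of -1.12, changed most of the 8 oxidation genes in KO cells. In SGPL1 OE cells 6 of the 8 oxidation genes fell, where 9.34% of all tested genes did, and FADS1 and FADS2, desaturases of polyunsaturated fatty acids, had the largest falls of the 41.

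Cells make fatty acids in the cytosol from acetyl-CoA, which is carboxylated to malonyl-CoA and then built into palmitate by a single multifunctional enzyme. Acyl-CoA synthetases activate the product, and desaturases and the elongation cycle of the endoplasmic reticulum modify it. It is then stored as triglyceride, built into membrane lipids and ceramides, or carried into mitochondria by the carnitine shuttle and oxidised. In the epidermis very long chain fatty acids go into the ceramides of the water barrier, and the lyase studied here releases a fatty aldehyde that can be oxidised and activated to palmitoyl-CoA, which links sphingolipid breakdown to this pathway.

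The cells were N/TERT, human epidermal keratinocytes immortalised with telomerase, given no treatment. The KO group was SGPL1 knockout made with CRISPR, the OE group overexpressed SGPL1, and the control group is labelled WT, with 3 libraries each. SGPL1 encodes S1P lyase, which breaks down sphingosine-1-phosphate irreversibly, and the series concerns the ichthyosis of lyase insufficiency. By the series text the 3 libraries of each group are biological replicates. Both edited and overexpressing cells are described as cell lines, but how many lines or clones lie behind each group, what drives the transgene in OE cells, and whether control cells went through editing or carried an empty vector are not stated in the sources used here, so p-values speak of the spread among these libraries, which may be technical.

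Values are counts per 1e6 counts (CPM) after TMM scaling, which corrects for differences in library composition. A log2 fold change is given ± its standard error, and every adjusted p comes from edgeR's quasi-likelihood test, two-sided, with Benjamini-Hochberg adjustment over the 13390 genes. A gene rose or fell where that p was under 0.05. SGPL1 itself had 58.8, 58.3 and 61.5 CPM in KO libraries, 1132, 1104 and 929 CPM in OE libraries and 83.9, 95.1 and 98.3 CPM in control libraries. It was therefore 1.55-fold lower in KO cells (-0.64 ± 0.09, adjusted p = 5.14e-06) and 11.4-fold higher in OE cells (3.51 ± 0.09, adjusted p = 4.90e-18), and no library overlapped another group. Its exons were counted whole and the edited site is not given, so the KO value is no test of the edit.

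Total counts ranged from 6317564 to 9410555 in KO libraries, from 8773822 to 13330479 in OE libraries and from 8730711 to 9251703 in control libraries, and 3 counts in a library stood for 0.225 to 0.475 CPM. Principal component 1 held 56.8% of the variance and set the KO libraries apart from all others. OE replicate 3, the deepest library, differed more from the other OE libraries (chi-square per degree of freedom of 10.1 and 10.8) than any other pair of replicates differed (2.72 to 6.25), and ACACA was the only member whose OE call was lost without it. The 14 keratinocyte markers, led by KRT5, summed to 19260 to 20850 CPM in KO libraries, 33420 to 34830 CPM in OE libraries and 31450 to 32280 CPM in control libraries. KRT15 and TP63 were higher in every KO library than in any control library, and the other markers of the list were lower. Of 8 adipocyte markers ADIPOR2 alone was tested, at 106 to 112 CPM in KO libraries, 142 to 155 in OE libraries and 126 to 139 in control libraries, and of 7 sebocyte markers FAR2 alone, at a mean of 11.3 ± 3.53 CPM in KO libraries, 13.9 ± 2.18 in OE libraries and 12.7 ± 2.03 in control libraries (SD, n = 3 each). ADIPOQ, LPL, AWAT1, AWAT2 and CIDEA had no count in any library. The part of the keratinocyte marker difference in the results below was not tested. In these bulk libraries fewer cells of a kind and less RNA per cell cannot be told apart.

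Fold changes in KO cells also followed exon length. Among 10 equal bins of tested genes by length, the bin of the shortest genes (median length 1178 bases) stood at a median log2 fold change of 0.518 in KO against control, and the bin of the longest (13563 bases) at -0.453. In OE against control the same bins stood at -0.027 and -0.055. Members run from 1904 bases (FABP5) to 16792 bases (MLYCD), and the synthesis genes include the long FASN (9321), ACACA (13022) and ACACB (14505). For each member a corrected value is therefore given where it matters, from the same test with the trend of each library on exon length and GC content removed. Where removal of the length trend alone changed a call, that is given with the gene. Some corrected values rest on GC content more than on length. In KO against control FASN was -1.74, -1.47 with the length trend alone removed and -0.99 corrected. ELOVL5 (0.31), ELOVL7 (0.49), PNPLA2 (-0.46) and ACADVL (-0.38) kept their calls with the length trend alone removed and lost them when corrected.

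**Figure D1:**
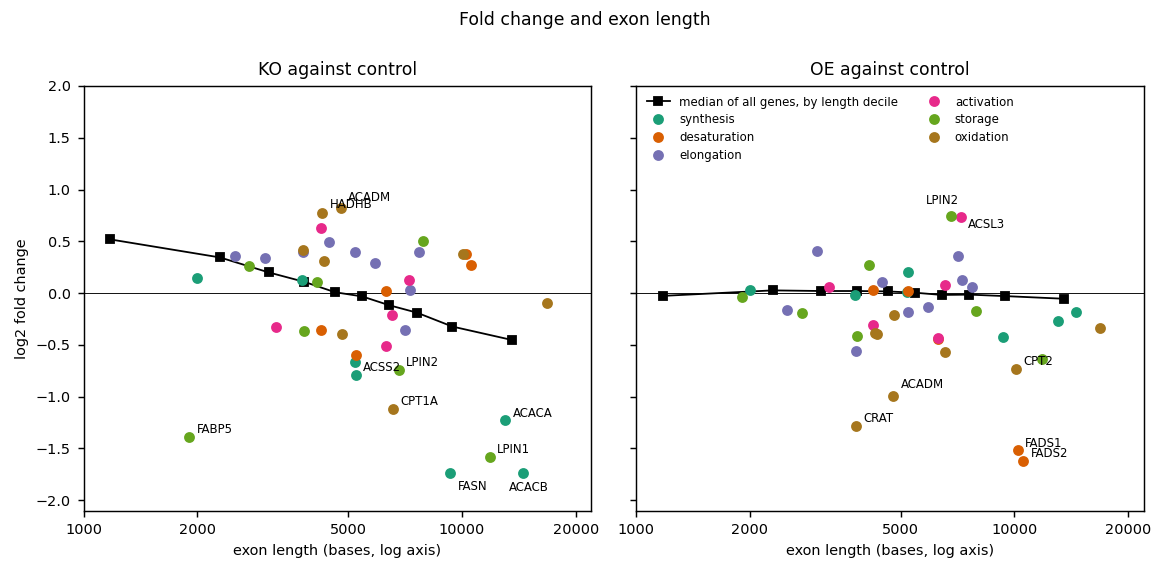
Log2 fold change (vertical axis) against exon length in bases (horizontal log axis) for the 41 tested members, coloured by role, in KO against control (left) and OE against control (right), with black squares for the median of all tested genes in each of 10 equal bins of exon length. In KO cells FASN, ACACA, ACACB, LPIN1 and FABP5 lie below the medians of genes of their length and ACADM and HADHB above them, while in OE cells the medians are nearly flat.

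Promoter sequences are shown for ACLY, SCD, ELOVL5 and HADHB as examples, which are not the members with the largest changes. They were taken from RefSeq on build GRCh38.p14 as windows from 250 bases before to 50 bases after a transcript start. The windows of FADS1, ACADM, LPIN1 and CPT1A, which have larger changes in KO or OE cells, hold no match to any motif searched below. A window was found for 36 of the 42 members. There was no entry for FASN, CRAT, HSD17B12, DGAT1, DGAT2 and FABP5. ACLY (chr17:41918973-41919272, minus strand) and SCD (chr10:100346983-100347282, plus strand) both fell in KO cells, and capitals mark the NF-Y box CCAAT or its reverse complement ATTGG. ELOVL5 (chr6:53348901-53349200, minus strand) was higher in KO cells, before correction only, and lower in OE cells, and its capitals mark the E-box CACGTG and a pair of NF-Y boxes. HADHA and HADHB start 307 bases apart on opposite strands of chromosome 2, so their windows overlap. For HADHB (chr2:26244689-26244988, plus strand) capitals mark the 194 bases that lie in the window of HADHA too, at chr2:26244689-26244882.
ACLY: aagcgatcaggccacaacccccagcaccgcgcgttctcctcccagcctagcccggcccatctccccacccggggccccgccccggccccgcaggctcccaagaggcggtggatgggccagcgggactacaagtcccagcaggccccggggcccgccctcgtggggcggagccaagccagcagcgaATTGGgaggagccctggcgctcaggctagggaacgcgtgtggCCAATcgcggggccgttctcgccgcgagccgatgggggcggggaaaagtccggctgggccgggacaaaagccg
SCD: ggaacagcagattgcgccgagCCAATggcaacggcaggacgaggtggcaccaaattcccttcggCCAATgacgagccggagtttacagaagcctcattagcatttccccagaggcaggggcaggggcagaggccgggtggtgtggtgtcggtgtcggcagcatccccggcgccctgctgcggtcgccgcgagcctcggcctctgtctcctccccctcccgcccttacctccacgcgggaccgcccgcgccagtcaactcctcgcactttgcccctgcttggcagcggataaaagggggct
ELOVL5: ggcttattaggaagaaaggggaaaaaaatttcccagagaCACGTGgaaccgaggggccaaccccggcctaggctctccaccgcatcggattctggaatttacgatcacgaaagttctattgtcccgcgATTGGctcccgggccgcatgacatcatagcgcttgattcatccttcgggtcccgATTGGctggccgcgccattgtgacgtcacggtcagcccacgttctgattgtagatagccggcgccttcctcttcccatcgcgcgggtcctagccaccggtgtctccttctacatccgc
HADHB: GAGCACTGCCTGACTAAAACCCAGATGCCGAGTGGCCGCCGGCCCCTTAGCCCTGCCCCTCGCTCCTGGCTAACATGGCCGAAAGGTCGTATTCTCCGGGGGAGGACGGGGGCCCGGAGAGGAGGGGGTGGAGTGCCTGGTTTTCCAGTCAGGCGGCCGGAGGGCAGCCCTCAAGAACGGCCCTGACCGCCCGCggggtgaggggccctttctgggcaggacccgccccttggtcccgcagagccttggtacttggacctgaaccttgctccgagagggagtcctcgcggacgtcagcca

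Each motif was searched on both strands, and a match is a description of letters only. NF-Y boxes (CCAAT) stood in a window of 19 of the 36 members (52.8%), against 39.7% of the 27305 genes with a window. The E-box CACGTG stood in 4 members (11.1%), ELOVL4, ELOVL5, LPIN2 and PLIN2, against 8.77% of all genes. The core of the sterol regulatory element, CACCCCAC, stood in 3 members (8.33%), MID1IP1, ACSL1 and PNPLA2, against 3.39% of all genes. Direct repeats of the nuclear receptor half-site AGGTCA spaced by 1 base or by 4 bases were in 0 members, against 0.0293% and 0.0256% of all genes. Exact repeats are so rare that their absence from 36 members tells nothing about these genes. Counted from the start, with negative positions before it, the NF-Y boxes began at -65 and -23 in the ACLY window shown and at -229 and -186 in SCD.

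KO against control called 51.9% of all tested genes, 26.0% higher and 25.9% lower, and of the 41 members 14 were higher, 16 lower and 11 did not pass. OE against control called 18.6% of all tested genes, 9.28% higher and 9.34% lower, and of the members 3 were higher, 14 lower and 24 did not pass. The median log2 fold change of the members was 0.11 in KO cells and -0.18 in OE cells, beside -0.005 and -0.007 for all tested genes. Both comparisons use the same control libraries. In KO cells 6 members fell at least 2-fold (6.52% of all genes did), namely ACACA, ACACB, FASN, LPIN1, FABP5 and CPT1A, and 0 rose so far (6.36% of all genes). Corrected, ACACB, LPIN1 and FABP5 stayed past 2-fold, while FASN stood at -0.99, CPT1A at -0.90 and ACACA at -0.75. In OE cells the members that fell at least 2-fold were FADS1, FADS2 and CRAT (1.9% of all genes), and 0 rose so far (1.46%). KO and control libraries did not overlap for 34 of the 41 members (59.5% of all genes), and OE and control libraries did not overlap for 25 (34.8%). With the length and GC trend removed, 15 members were higher and 15 lower in KO cells (45.6% of all genes were called), and 3 were higher and 16 lower in OE cells (21.2%).

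**Figure D2:**
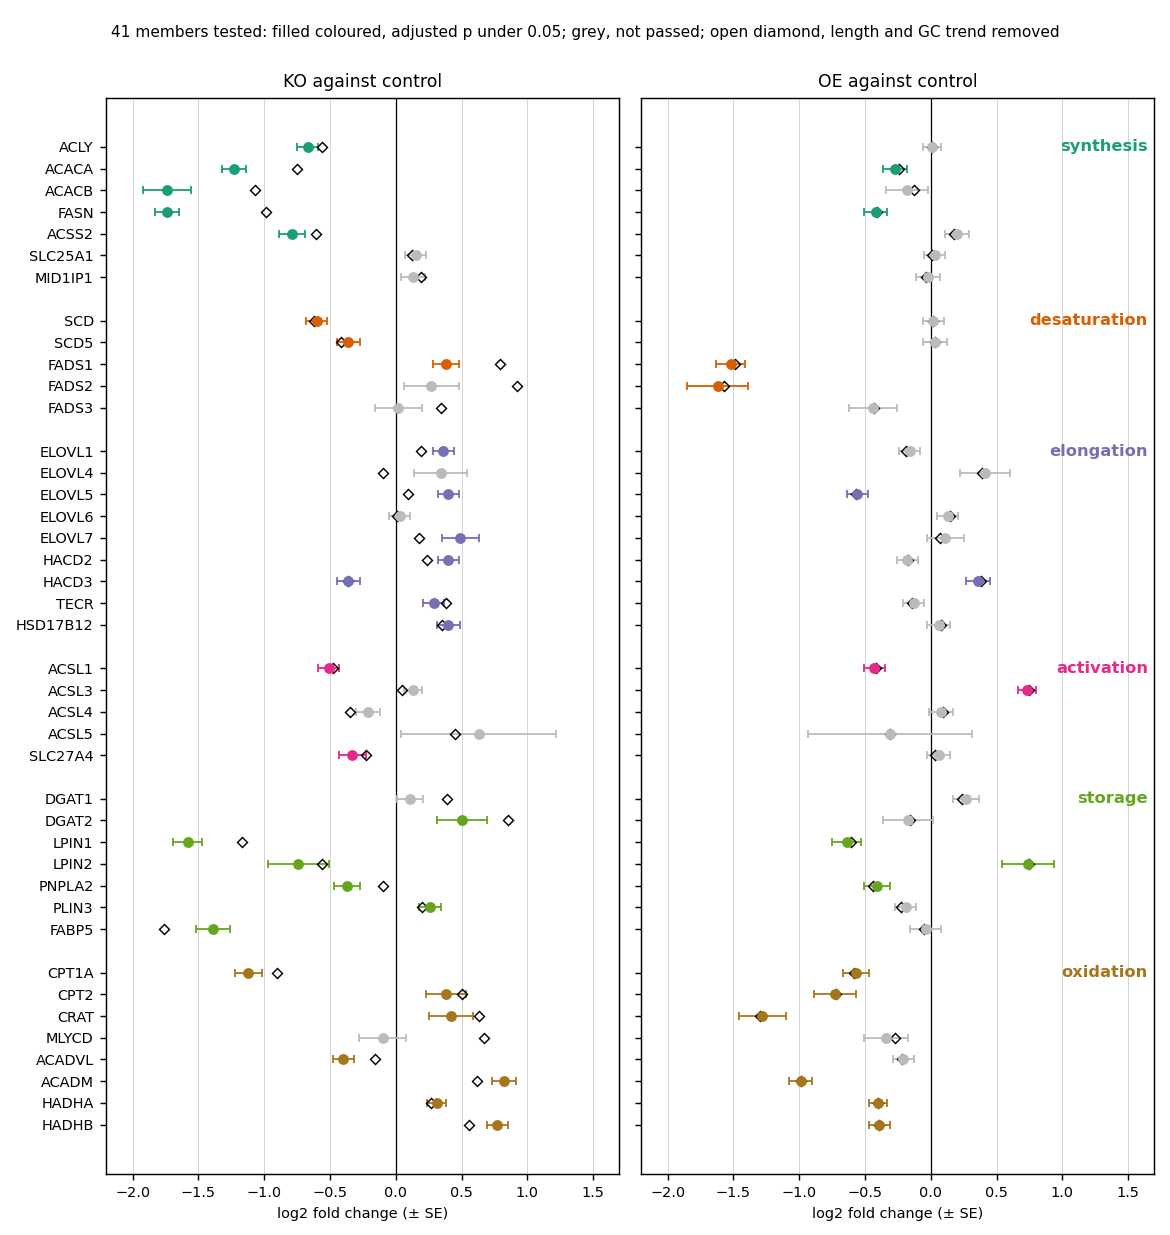
Log2 fold change ± SE (horizontal axis) of the 41 tested members, grouped by role, in KO against control (left) and OE against control (right), filled in colour where the adjusted p was under 0.05 and grey where it was not, with open diamonds for the value after removal of the length and GC trend. In KO cells 5 of 7 synthesis genes lie well to the left, while 5 oxidation genes lie to the right in KO cells and all 8 lie to the left in OE cells.

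Levels of different members were compared per kilobase of exon. SCD, the main stearoyl-CoA desaturase, had the highest level of the 42 in every group, with 286 CPM per kb in KO cells, 439 in OE cells and 434 in control cells. FASN ranked 8 in KO cells with 62.7 CPM per kb, 2 in OE cells with 157, and 2 in control cells with 210.0. HACD2, a dehydratase of the elongation cycle, ranked 2 in KO cells with 111 CPM per kb, against rank 5 in OE cells (74.2) and in control cells (84). These ranks mix a gene's own change with the length trend of the KO libraries. Of the tested members ACSL5 was the lowest in every group, at 0.333 CPM per kb in KO cells, 0.185 in OE cells and 0.223 in control cells. PLIN2, which coats lipid droplets and shares no exon base with another gene, had no count in 8 libraries and 0.338 CPM in KO library 3. That is below the level of 3 counts, so no fold change is given. PLIN2 is widely expressed in other cell types, and what lies behind its near lack of counts here was not tested.

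**Figure D3:**
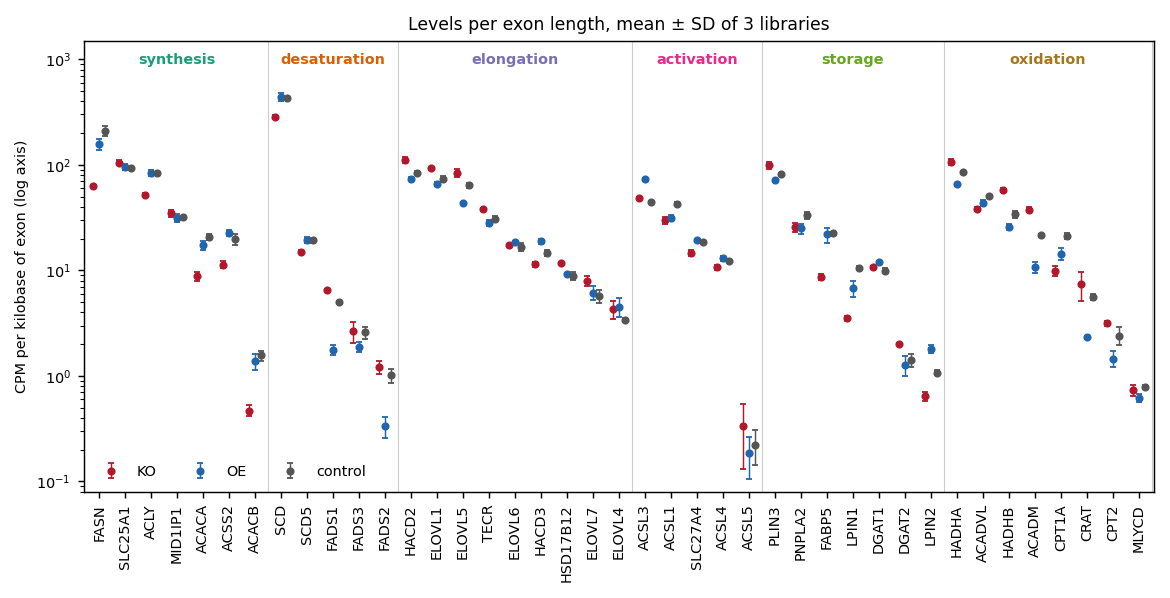
Mean ± SD of 3 libraries of CPM per kilobase of exon (vertical log axis) for the 41 tested members by role, with KO, OE and control cells from left to right for each gene. SCD is highest in all 3 groups, and FASN stands at 62.7 in KO cells against 210.0 in control cells.

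Synthesis genes fell in KO cells as far as they changed at all: 5 of 7 were lower (25.9% of all genes were), 0 were higher, and SLC25A1 and MID1IP1 did not pass. In OE cells 2 were lower and 0 higher (9.34% and 9.28% of all genes). FASN (ENSG00000169710; GRCh38 chromosome 17, 82078338 to 82098294, minus strand) is the synthase that builds palmitate. It had 578, 601 and 575 CPM in KO libraries, 1593, 1550 and 1255 CPM in OE libraries and 1709, 2063 and 2093 CPM in control libraries. All KO libraries lay far below every other library, and the OE libraries lay below all control libraries. FASN thus averaged 585 ± 14.5 CPM in KO cells and 1955 ± 213 CPM in control cells (SD, n = 3 each), 3.34-fold lower at -1.74 ± 0.09 (adjusted p = 2.04e-12). Corrected, the difference was -0.99 (adjusted p = 8.88e-12). In OE cells FASN fell by less, at -0.42 ± 0.09 (adjusted p = 0.00215), and at -0.30 (adjusted p = 0.0068) without OE replicate 3, its lowest OE library.

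ACACA (ENSG00000278540; chromosome 17, 37084992 to 37406836, minus strand), the acetyl-CoA carboxylase that makes malonyl-CoA for synthesis, had 106, 127 and 111 CPM in KO libraries, 236, 237 and 197 CPM in OE libraries and 253, 273 and 284 CPM in control libraries. The groups did not overlap, and the order was the same as for FASN, with KO lowest and control highest. The fall was -1.23 ± 0.09 (adjusted p = 2.23e-10) in KO cells, corrected -0.75, and -0.27 ± 0.09 (adjusted p = 0.0321) in OE cells. The OE call was lost without OE replicate 3 (adjusted p = 0.145), control replicate 2 (0.114) or control replicate 3 (0.144). ACACB, the carboxylase of the mitochondrial surface whose malonyl-CoA restrains fatty acid import, had 5.91, 7.06 and 7.44 CPM in KO libraries, 20.7, 23.2 and 16.3 CPM in OE libraries and 22.1, 20.5 and 25.3 CPM in control libraries. The KO libraries were below all others, and OE and control libraries overlapped. It changed by -1.74 ± 0.18 (adjusted p = 4.03e-08) in KO cells, corrected -1.07, and by -0.18 ± 0.16 (adjusted p = 0.495) in OE cells, where it did not pass.

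The enzymes that supply cytosolic acetyl-CoA fell with them in KO cells. ACLY, which cleaves citrate, had 267, 281 and 264 CPM in KO libraries, 464, 430.3 and 411 CPM in OE libraries and 433, 422 and 438 CPM in control libraries. The KO libraries were the low ones, and OE and control libraries overlapped. ACSS2, which activates acetate, had 56.8, 64.7 and 57.2 CPM in KO libraries, 126, 110.3 and 118 CPM in OE libraries and 117, 95 and 97.2 CPM in control libraries. KO libraries were again below all others. The fold changes in KO cells were -0.67 ± 0.08 (adjusted p = 1.05e-07) for ACLY and -0.79 ± 0.10 (adjusted p = 5.77e-07) for ACSS2, corrected -0.56 and -0.61, and neither passed in OE cells (0.01 and 0.20).

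SLC25A1, the mitochondrial citrate exporter, had a log2 fold change of 0.15 ± 0.08 in KO cells (adjusted p = 0.102) and 0.03 ± 0.08 in OE cells (adjusted p = 0.84). MID1IP1, which promotes the assembly of acetyl-CoA carboxylase into active filaments, had one of 0.13 ± 0.09 (adjusted p = 0.235) in KO cells and -0.02 ± 0.09 (adjusted p = 0.894) in OE cells. Summed over the 7 genes, synthesis transcripts held 1340 to 1419 CPM in KO libraries, 2311 to 2768 CPM in OE libraries and 2846 to 3245 CPM in control libraries, with FASN the largest contributor.

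**Figure D4:**
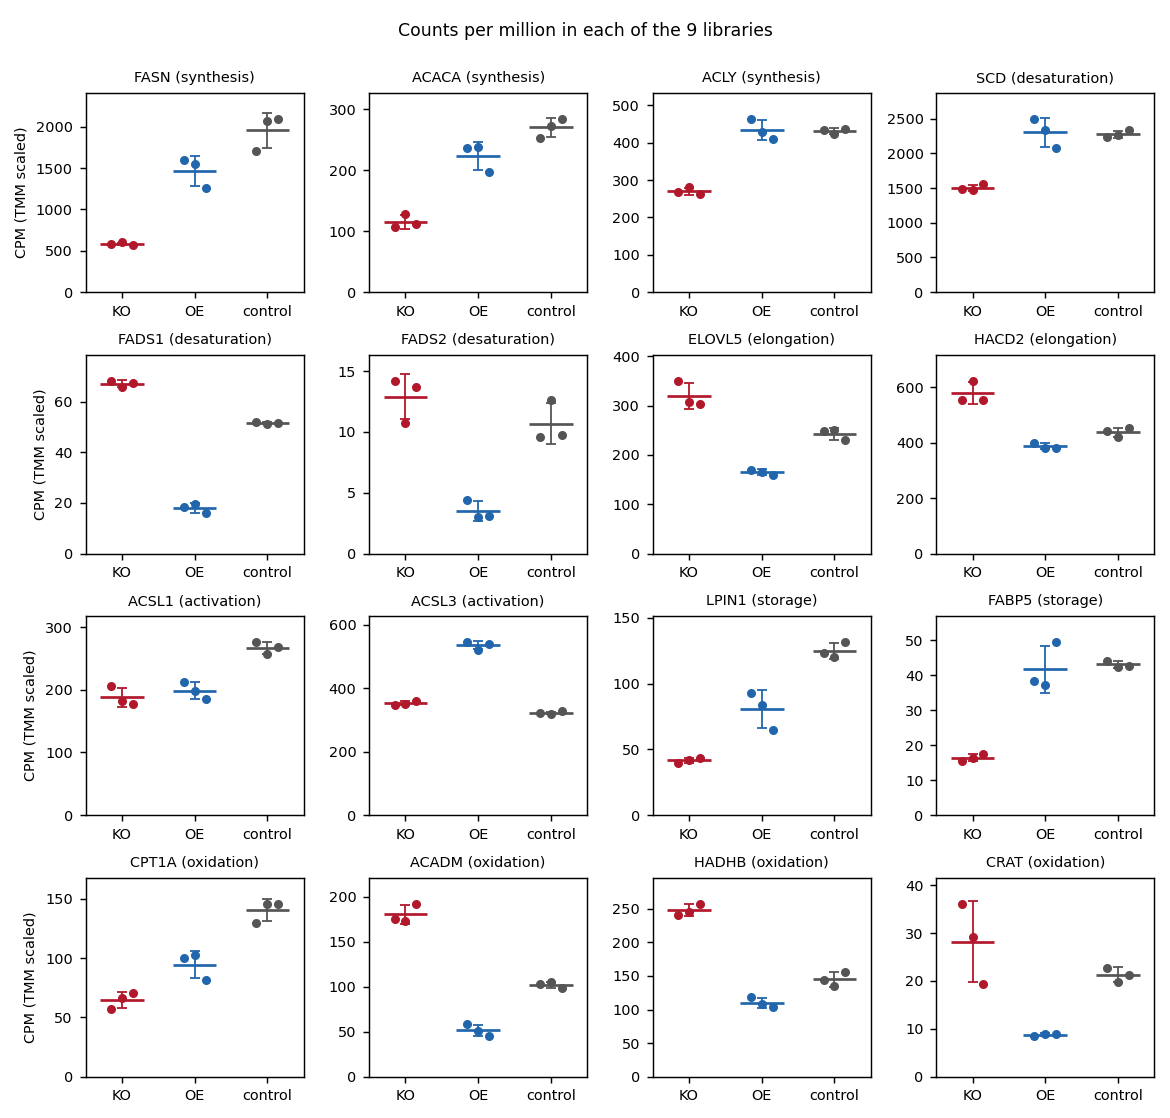
CPM (vertical axis, from 0) of 16 members in each library, with KO, OE and control from left to right, points for libraries, and bars for the mean ± SD of 3. FASN, ACACA, ACLY, SCD and FABP5 are low in KO libraries, FADS1, FADS2 and CRAT are low in OE libraries, and ACSL3 is high in OE libraries.

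Of the 5 desaturases 2 fell and 1 rose in KO cells (25.9% and 26.0% of all genes did), and 2 fell and 0 rose in OE cells (9.34% and 9.28%). SCD, which introduces a double bond into saturated acyl-CoA, had 1487, 1464 and 1555 CPM in KO libraries, 2495, 2332 and 2079 CPM in OE libraries and 2232, 2263 and 2332 CPM in control libraries. Its KO libraries were below every other library, and OE and control libraries overlapped. SCD5, the other human gene of that type, had 60.4, 65 and 64.3 CPM in KO libraries, 83.5, 77.2 and 87.7 CPM in OE libraries and 83.2, 75.2 and 84.7 CPM in control libraries, and again only KO libraries stood apart. Both fell in KO cells, SCD at -0.60 ± 0.08 (adjusted p = 8.91e-07) and SCD5 at -0.36 ± 0.09 (adjusted p = 0.00243), corrected -0.62 and -0.42. In OE cells neither passed (0.02 and 0.03).

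FADS1 (ENSG00000149485; chromosome 11, 61799627 to 61829318, minus strand) and FADS2 (ENSG00000134824; chromosome 11, 61792980 to 61867354, plus strand) encode the desaturases of polyunsaturated fatty acids and lie across each other. FADS1 had 68.3, 65.6 and 67.3 CPM in KO libraries, 18.5, 19.7 and 16.1 CPM in OE libraries and 52.1, 51.2 and 51.6 CPM in control libraries. The 3 groups were fully separate, with KO highest and OE lowest. FADS2 had 14.2, 10.8 and 13.7 CPM in KO libraries, 4.43, 3.02 and 3.06 CPM in OE libraries and 9.6, 12.6 and 9.78 CPM in control libraries. OE libraries were below all others, and KO and control libraries overlapped. In OE cells FADS1 changed by -1.52 ± 0.11 (adjusted p = 8.94e-10) and FADS2 by -1.62 ± 0.23 (adjusted p = 2.22e-05), the largest falls of any of the 41 members in OE cells. In KO cells FADS1 rose by 0.38 ± 0.10 (adjusted p = 0.00334), corrected 0.79, and FADS2 did not pass (0.27, adjusted p = 0.305) until corrected, at 0.92 (adjusted p = 0.000792), or with the length trend alone removed (adjusted p = 0.0191). The ratio of FADS1 to FADS2 CPM per kilobase, genes of similar exon length with 50.1% and 58.6% GC, averaged 5.44 ± 0.737 in KO cells, 5.47 ± 1.2 in OE cells and 5.07 ± 0.777 in control cells (SD, n = 3 each). These differ by less than the spread between libraries. Of the exon bases of FADS1 5.57% overlap other genes and of FADS2 5.11%, each with the other among them, so some reads of the pair cannot be told apart. FADS3, which is known to desaturate sphingoid bases, had 13.5, 15.8 and 20.6 CPM in KO libraries, 11.5, 10.7 and 13.4 CPM in OE libraries and 13.6, 17.6 and 17.4 CPM in control libraries. Its OE libraries were below all others, and KO and control libraries overlapped. It changed by 0.02 ± 0.18 (adjusted p = 0.923) in KO cells and by -0.44 ± 0.18 (adjusted p = 0.0915) in OE cells, and passed in neither.

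Elongation genes rose in KO cells: 6 of 9 were higher (26.0% of all genes were) and HACD3 was lower, while in OE cells HACD3 was higher, ELOVL5 lower and 7 did not pass (9.28% of all genes were higher and 9.34% lower). With the length and GC trend removed 4 were higher and HACD3 was still lower in KO cells (24.8% and 20.7% of all genes were). ELOVL5, the elongase of polyunsaturated fatty acids, had 351, 307 and 302 CPM in KO libraries, 170.0, 166 and 159 CPM in OE libraries and 248, 250.5 and 229 CPM in control libraries. The groups did not overlap, with KO highest and OE lowest, the same order as FADS1. It changed by 0.40 ± 0.08 (adjusted p = 0.000185) in KO cells and by -0.56 ± 0.08 (adjusted p = 2.05e-05) in OE cells, but corrected the KO value did not pass, at 0.09 (adjusted p = 0.36), while the OE value was -0.57.

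HACD2 and HACD3 are hydroxyacyl-CoA dehydratases of the cycle, and they moved in opposite directions. HACD2 had 555, 624 and 555 CPM in KO libraries, 400.1, 382 and 381 CPM in OE libraries and 442, 420.3 and 452 CPM in control libraries, and HACD3 had 77.6, 78.9 and 87.1 CPM in KO libraries, 138, 126 and 138 CPM in OE libraries and 107, 108 and 96.3 CPM in control libraries. KO libraries were the highest for HACD2 and the lowest for HACD3, without overlap in either. In KO cells HACD2 changed by 0.40 ± 0.08 (adjusted p = 0.00011) and HACD3 by -0.36 ± 0.09 (adjusted p = 0.00151), corrected 0.24 and -0.36. With the length trend alone removed HACD3 did not pass (adjusted p = 0.0586). In OE cells HACD3 rose by 0.36 ± 0.09 (adjusted p = 0.00365) and HACD2 did not pass (-0.18, adjusted p = 0.109).

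HSD17B12, the ketoacyl-CoA reductase of the cycle, had 90.3, 90.2 and 92.2 CPM in KO libraries, 69.3, 73.2 and 72.1 CPM in OE libraries and 75.2, 66.8 and 64.3 CPM in control libraries. Its KO libraries were above all others, and 0.40 ± 0.09 in KO cells passed (adjusted p = 0.000653, corrected 0.35), although 21.9% of its exon bases overlap other genes. TECR, the enoyl-CoA reductase that also acts at the end of sphingosine degradation, changed by 0.29 ± 0.08 (adjusted p = 0.00337) in KO cells, corrected 0.38, and by -0.13 in OE cells (adjusted p = 0.27). ELOVL1, the elongase of very long saturated chains used in ceramides, had 232, 236 and 241 CPM in KO libraries, 167, 157 and 171 CPM in OE libraries and 199, 176 and 177 CPM in control libraries. KO libraries were highest and OE libraries lowest, without overlap. It changed by 0.36 ± 0.08 (adjusted p = 0.000451) in KO cells, corrected 0.19 but not passing with the length trend alone removed (adjusted p = 0.104), and by -0.16 in OE cells (adjusted p = 0.17).

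ELOVL7, an elongase of long-chain acyl-CoA, had 35.5, 31.9 and 39.7 CPM in KO libraries, 32.1, 25.6 and 24.4 CPM in OE libraries and 27.3, 21.2 and 27.4 CPM in control libraries. KO libraries were highest apart from OE replicate 1, which lay among them. Its rise of 0.49 ± 0.14 (adjusted p = 0.00549) in KO cells was lost without control replicate 2 (adjusted p = 0.051) and when corrected, at 0.18 (adjusted p = 0.295). ELOVL4, which makes the ultra-long chains of skin barrier ceramides, and ELOVL6, which extends palmitate to stearate, passed in neither comparison. ELOVL4 had a log2 fold change of 0.34 in KO cells and 0.41 in OE cells, and ELOVL6 had 0.03 in KO cells and 0.13 in OE cells.

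Of the 5 activation genes 2 fell in KO cells and 0 rose, where 25.9% of all genes fell and 26.0% rose. As 51.9% of all genes were called in either direction, the share called before correction is not above that of all genes. Corrected, 3 fell and 0 rose, where 20.7% of all genes fell, 24.8% rose and 45.6% were called. In OE cells 1 rose and 1 fell (9.28% and 9.34% of all genes). ACSL1, a long-chain acyl-CoA synthetase of mitochondria and the endoplasmic reticulum, had 205, 182 and 176 CPM in KO libraries, 213, 198 and 185 CPM in OE libraries and 276, 257 and 268 CPM in control libraries. KO and OE libraries both lay below all control libraries and overlapped each other. It changed by -0.51 ± 0.08 (adjusted p = 1.58e-05) in KO cells, corrected -0.48, and by -0.43 ± 0.08 (adjusted p = 0.000496) in OE cells. ACSL3, the synthetase of the endoplasmic reticulum and lipid droplets, had 348, 350.2 and 361 CPM in KO libraries, 545, 521 and 539.9 CPM in OE libraries and 321, 319 and 327 CPM in control libraries. OE libraries stood above all others, with 0.73 ± 0.07 (adjusted p = 1.12e-07), and the KO value of 0.13 did not pass (adjusted p = 0.125) except with the length trend alone removed (adjusted p = 0.000966). SLC27A4, a fatty acid transporter and acyl-CoA synthetase whose loss causes a form of ichthyosis, had 50.7, 47.2 and 44.5 CPM in KO libraries, 60.6, 61.4 and 64.5 CPM in OE libraries and 58, 61.2 and 60 CPM in control libraries. Its KO libraries lay below all others, at -0.33 ± 0.10 (adjusted p = 0.00654), corrected -0.23.

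ACSL4, which prefers polyunsaturated fatty acids, had 68.7, 74.2 and 66.5 CPM in KO libraries, 80.1, 88.7 and 87.5 CPM in OE libraries and 79.7, 79.4 and 83.3 CPM in control libraries. KO libraries were below all others, and OE and control libraries overlapped. It changed by -0.21 ± 0.09 (adjusted p = 0.0554) in KO cells, corrected -0.35 (adjusted p = 0.00157), and by 0.08 in OE cells. ACSL5 averaged 1.41 ± 0.858 CPM in KO cells, 0.784 ± 0.335 in OE cells and 0.943 ± 0.344 in control cells (SD, n = 3 each), and its log2 fold change of 0.63 ± 0.59 in KO cells did not pass (adjusted p = 0.392).

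Storage genes moved both ways in KO cells: of 7 tested, 4 fell and 2 rose, where 25.9% of all genes fell and 26.0% rose. Corrected, 3 fell and 3 rose, where 20.7% of all genes fell and 24.8% rose. In OE cells 2 fell and 1 rose (9.34% and 9.28% of all genes). LPIN1 (ENSG00000134324; chromosome 2, 11677595 to 11827409, plus strand) is a phosphatidate phosphatase that makes diacylglycerol and also acts in the nucleus as a coactivator of fatty acid oxidation genes in liver. It had 39.5, 42 and 43.6 CPM in KO libraries, 93, 83.9 and 64.6 CPM in OE libraries and 123, 120.0 and 132 CPM in control libraries. The groups did not overlap, with KO lowest and control highest. It changed by -1.58 ± 0.11 (adjusted p = 1.24e-10) in KO cells, corrected -1.17, and by -0.64 ± 0.11 (adjusted p = 0.00012) in OE cells. LPIN2, another phosphatase of the family, had 4.82, 3.92 and 4.4 CPM in KO libraries, 12.2, 13.4 and 11.2 CPM in OE libraries and 7.64, 7.37 and 6.85 CPM in control libraries. KO libraries were lowest and OE libraries highest, without overlap, at -0.74 ± 0.23 (adjusted p = 0.00874) in KO cells, corrected -0.56, and 0.74 ± 0.20 (adjusted p = 0.0103) in OE cells. The OE call was lost without OE replicate 2 (adjusted p = 0.0536).

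FABP5, the epidermal fatty acid binding protein, had 15.6, 16.4 and 17.4 CPM in KO libraries, 38.4, 37.3 and 49.5 CPM in OE libraries and 44.2, 42.5 and 42.7 CPM in control libraries. The KO libraries were below all others, and OE and control libraries overlapped. The change in KO cells was -1.39 ± 0.13 (adjusted p = 9.55e-09) and, corrected, -1.76, while the OE value was -0.04 (adjusted p = 0.859). FABP5 has near-identical processed pseudogenes, so its counts are uncertain.

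PNPLA2, the lipase that begins triglyceride breakdown, had 106, 99.6 and 87.3 CPM in KO libraries, 108, 89.5 and 90.1 CPM in OE libraries and 116, 132 and 132 CPM in control libraries. KO and OE libraries lay below all control libraries. It changed by -0.37 ± 0.10 (adjusted p = 0.00241) in KO cells, which did not pass when corrected (-0.10, adjusted p = 0.348), and by -0.41 ± 0.10 (adjusted p = 0.00353) in OE cells. Of its exon bases 10.5% overlap another gene. DGAT2, an enzyme of the last step of triglyceride synthesis, had 15.8, 16.4 and 15.6 CPM in KO libraries, 8.85, 12.6 and 8.68 CPM in OE libraries and 12.4, 11.8 and 9.44 CPM in control libraries. KO libraries were highest, at 0.50 ± 0.19 (adjusted p = 0.0288), but the call was lost without KO replicate 1 (adjusted p = 0.0574), KO replicate 2 (0.0759), control replicate 2 (0.051) or control replicate 3 (0.133). Corrected, it was 0.85 (adjusted p = 0.00047).

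DGAT1, the other enzyme of that step, had a log2 fold change of 0.11 ± 0.10 in KO cells (adjusted p = 0.377, corrected 0.39, adjusted p = 0.00265) and 0.27 ± 0.10 in OE cells (adjusted p = 0.0614). PLIN3, a coat protein of nascent lipid droplets, changed by 0.26 ± 0.08 (adjusted p = 0.00572) in KO cells, a call lost without KO replicate 2 (adjusted p = 0.0558) and with the length trend alone removed (0.383), and by -0.19 in OE cells (adjusted p = 0.0788), which passed when corrected (-0.23, adjusted p = 0.0229) and with the length trend alone removed (0.0261). Of the exon bases of PLIN3 18.3% and of DGAT1 11.1% overlap other genes.

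In KO cells 5 of the 8 oxidation genes rose and 2 fell (26.0% and 25.9% of all genes did), with a median log2 fold change of 0.34. Corrected, 6 rose and 1 fell in KO cells (24.8% and 20.7% of all genes). In OE cells 6 of the 8 fell and 0 rose (9.34% and 9.28% of all genes), with a median of -0.48. Corrected, 7 fell and 0 rose in OE cells (10.5% and 10.7% of all genes). Summed, the 8 genes held 1193 to 1245 CPM in KO libraries, 761 to 817 CPM in OE libraries and 1045 to 1073 CPM in control libraries. ACADM (ENSG00000117054; chromosome 1, 75724347 to 75787575, plus strand), the medium-chain acyl-CoA dehydrogenase, had 176, 173 and 192 CPM in KO libraries, 58.1, 51.3 and 45.8 CPM in OE libraries and 103, 105 and 98.7 CPM in control libraries. The 3 groups were fully separate, with KO highest and OE lowest. It changed by 0.82 ± 0.09 (adjusted p = 8.03e-08) in KO cells, corrected 0.62, and by -0.99 ± 0.09 (adjusted p = 7.43e-08) in OE cells.

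HADHA and HADHB are the subunits of the mitochondrial trifunctional protein, which carries out the later steps of long-chain oxidation. HADHB (ENSG00000138029; chromosome 2, 26243170 to 26290465, plus strand) had 240.4, 245 and 258 CPM in KO libraries, 118, 108 and 104 CPM in OE libraries and 144, 134 and 156 CPM in control libraries. HADHA (ENSG00000084754; chromosome 2, 26190635 to 26244672, minus strand) had 497, 462 and 434 CPM in KO libraries, 285, 280.2 and 287 CPM in OE libraries and 382, 366 and 372 CPM in control libraries. For both, KO libraries were highest and OE libraries lowest, without overlap. In KO cells HADHB changed by 0.77 ± 0.08 (adjusted p = 4.54e-08) and HADHA by 0.31 ± 0.07 (adjusted p = 0.00111), corrected 0.56 and 0.27, and in OE cells HADHB changed by -0.39 ± 0.08 (adjusted p = 0.00139) and HADHA by -0.40 ± 0.07 (adjusted p = 0.000491). HADHA and HADHB have 4331 and 4277 exon bases and a GC content of 49.4% and 43.5%. Their ratio of CPM per kilobase, not corrected for GC content, averaged 1.86 ± 0.19 in KO cells, 2.55 ± 0.174 in OE cells and 2.56 ± 0.176 in control cells (SD, n = 3 each). It was 1.66 to 2.04 in KO libraries and at least 2.36 in every other library. The exons of the pair share no base.

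CPT1A (ENSG00000110090; chromosome 11, 68754620 to 68844410, minus strand), the carnitine transferase that limits entry into oxidation and is inhibited by malonyl-CoA, went the other way in KO cells. It had 57.2, 66.7 and 70.5 CPM in KO libraries, 99.8, 102 and 81.1 CPM in OE libraries and 129, 145 and 146 CPM in control libraries. KO libraries were lowest, OE libraries next and control libraries highest, with no overlap. It changed by -1.12 ± 0.10 (adjusted p = 5.87e-09) in KO cells, corrected -0.90, and by -0.57 ± 0.10 (adjusted p = 0.000181) in OE cells. ACADVL, the very-long-chain dehydrogenase bound to the inner membrane, had 193, 181 and 175 CPM in KO libraries, 222, 195 and 210.5 CPM in OE libraries and 249.5, 240.5 and 235 CPM in control libraries. KO libraries lay below all others, at -0.40 ± 0.08 (adjusted p = 0.000146), but corrected the value did not pass (-0.16, adjusted p = 0.0779), and in OE cells it was -0.21 (adjusted p = 0.0612), which passed when corrected (-0.22, adjusted p = 0.0247) and with the length trend alone removed (0.0279). ACADM and ACADVL have 4783 and 4820 exon bases, but ACADM has the lower GC content. The ratio of ACADM to ACADVL CPM per kilobase, not corrected for GC content, was 0.919 to 1.11 in KO libraries. It was 0.219 to 0.265 in OE libraries and 0.415 to 0.441 in control libraries. In KO cells the log2 fold changes of ACADM and ACADVL were 0.84 and -0.38 with the length trend alone removed. Corrected for length and GC they lay closer together, at 0.62 and -0.16.

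CRAT, the carnitine transferase of acetyl groups and short chains, had 36.1, 29.1 and 19.3 CPM in KO libraries, 8.41, 8.97 and 8.97 CPM in OE libraries and 22.8, 19.8 and 21.4 CPM in control libraries. OE libraries were far below all others and almost equal, while KO libraries spread across and above the control libraries. The fall in OE cells was -1.28 ± 0.18 (adjusted p = 2.35e-05), 2.42-fold. The rise in KO cells of 0.42 ± 0.17 (adjusted p = 0.0461) was lost without KO replicate 1 (adjusted p = 0.381), KO replicate 2 (0.108) or any 1 control library (0.0607 to 0.145) and with the length trend alone removed (0.112), while corrected for length and GC it was 0.63 (adjusted p = 0.00265).

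CPT2, the carnitine transferase of the inner membrane, had 31.9, 29.8 and 33.1 CPM in KO libraries, 14.5, 17.3 and 12.3 CPM in OE libraries and 29, 19.7 and 24.2 CPM in control libraries. OE libraries were lowest and KO libraries highest, and control replicate 2 was the lowest of the control libraries. It changed by -0.73 ± 0.16 (adjusted p = 0.00182) in OE cells. The value in KO cells, 0.38 ± 0.15 (adjusted p = 0.0417), was lost without any 1 KO library (adjusted p = 0.0551 to 0.1), control replicate 2 (0.237) or control replicate 3 (0.0951), while corrected it was 0.50 (adjusted p = 0.00546). Of its exon bases 12.4% overlap other genes. MLYCD, which decarboxylates malonyl-CoA, passed in neither comparison, with -0.10 ± 0.18 (adjusted p = 0.647) in KO cells and -0.34 ± 0.17 (adjusted p = 0.186) in OE cells. It has the longest exon length of the members, and with the length and GC trend removed its KO value changed sign and passed, at 0.67 (adjusted p = 0.00353).

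KO cells were also set directly against OE cells, which tests whether the changes from control differ and shares libraries with both comparisons above. It called 57.6% of all tested genes, 28.6% higher and 29.0% lower, and of the 41 members 16 were higher in KO cells, 16 lower and 9 did not pass. With the trend removed 18 were higher (28.0% of all genes were) and 16 lower (25.1%), with 53.1% of all genes called in either direction. KO and OE libraries did not overlap for 33 members (61.6% of all genes). The desaturases FADS1 (1.90 ± 0.11, adjusted p = 1.77e-12) and FADS2 (1.89 ± 0.23, adjusted p = 3.13e-07), ACADM (1.81 ± 0.09, adjusted p = 3.40e-13), CRAT (1.69 ± 0.18, adjusted p = 4.21e-08), HADHB (1.17 ± 0.08, adjusted p = 4.58e-11) and CPT2 (1.11 ± 0.16, adjusted p = 2.34e-06) were higher in KO cells by at least 2-fold (9.48% of all genes were). ACACB (-1.56 ± 0.18, adjusted p = 1.36e-07), LPIN2 (-1.48 ± 0.22, adjusted p = 3.44e-06), FABP5 (-1.35 ± 0.13, adjusted p = 7.75e-09) and FASN (-1.33 ± 0.09, adjusted p = 4.46e-11) were lower by at least 2-fold (8.95%). Corrected, HADHB stood at 0.96, ACACB at -0.94 and FASN at -0.57, all under 2-fold, and the others stayed past it.

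Of the other members, ACSS2 (-0.99), ACACA (-0.96), LPIN1 (-0.94), HACD3 (-0.72), ACLY (-0.69), SCD (-0.62), ACSL3 (-0.60), CPT1A (-0.54), SCD5 (-0.39), SLC27A4 (-0.39) and ACSL4 (-0.29) were lower in KO cells, ACSL4 not with the length trend alone removed (adjusted p = 0.0756). ELOVL5 (0.96), HADHA (0.71), DGAT2 (0.67), HACD2 (0.58), ELOVL1 (0.52), PLIN3 (0.46), TECR (0.43) and HSD17B12 (0.34) were higher. FADS3 was higher at 0.47 ± 0.18 (adjusted p = 0.0322), a call lost without KO replicate 2 or 3 or OE replicate 1 or 2 (adjusted p = 0.0508 to 0.193). ELOVL7 was higher at 0.38 ± 0.14 (adjusted p = 0.0223), a call lost without KO replicate 1 or 3 or OE replicate 2 or 3 (0.0517 to 0.101) and when corrected, at 0.11 (adjusted p = 0.503). ACADVL was lower at -0.19 ± 0.08 (adjusted p = 0.0387), a call lost without KO replicate 2 or 3, OE replicate 1 or control replicate 2 or 3 (0.0507 to 0.139) and with the length trend alone removed (0.104). ACADVL changed sign when corrected, at 0.07 (adjusted p = 0.459). MLYCD did not pass at 0.24 ± 0.18 (adjusted p = 0.257) but did with the length trend alone removed (adjusted p = 0.00248) and corrected, at 0.94 (adjusted p = 9.03e-05). PNPLA2 (0.33, adjusted p = 0.00183), MID1IP1 (0.23, adjusted p = 0.0227) and ELOVL4 (-0.49, adjusted p = 0.0364) passed only when corrected for length and GC. The falls of ACACA and LPIN1 were smaller when corrected, at -0.51 and -0.56.

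The other genes of the pathway, 126 in 9 lists of which 100 were tested, show the surroundings of these enzymes. These lists too were drawn up with earlier results of the data known. In KO cells 41 were higher, 14 lower and 45 did not pass (50 higher and 10 lower corrected), with a median log2 fold change of 0.26, where 26.0% of all genes were higher and 25.9% lower (24.8% and 20.7% corrected). In OE cells 9 were higher, 20 lower and 71 did not pass, with a median of -0.12, where 9.28% of all genes were higher and 9.34% lower. The counts of the single lists below stand against the same shares. Fold changes of single genes in these lists are uncorrected unless a corrected value is given with the gene. In KO against OE 49 were higher, 19 lower and 32 did not pass, with a median of 0.38, where 28.6% of all genes were higher and 29.0% lower. Among 17 other genes of mitochondrial oxidation 11 rose in KO cells and 0 fell (9 and 0 corrected), and in OE cells 0 rose and 5 fell. ETFA, a subunit of the flavoprotein that takes electrons from the dehydrogenases, had 266, 292 and 306 CPM in KO libraries, 144, 134 and 153 in OE libraries and 166, 154 and 153 in control libraries. Only its KO libraries stood apart, at 0.87 ± 0.08 (adjusted p = 6.93e-09). HADH, the short-chain hydroxyacyl-CoA dehydrogenase, changed by 1.12 ± 0.12 (adjusted p = 3.62e-08) and ECI1, an enoyl-CoA isomerase, by 0.81 ± 0.10 (adjusted p = 4.85e-07) in KO cells. In OE cells the carnitine importer SLC22A5 (-0.74 ± 0.12, adjusted p = 0.000128), the short-chain dehydrogenase ACADS (-0.82 ± 0.20, adjusted p = 0.00407) and the dienoyl-CoA reductase DECR1 (-0.41 ± 0.10, adjusted p = 0.0042) fell.

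Of 13 peroxisomal genes 5 rose and 0 fell in KO cells (6 and 1 corrected), while 1 rose and 5 fell in OE cells. The carrier protein and thiolase SCP2 (0.64 ± 0.08, adjusted p = 5.46e-07), the peroxisomal transporter ABCD3 (0.58 ± 0.08, adjusted p = 2.47e-06) and PHYH, which starts the breakdown of phytanic acid (0.97 ± 0.17, adjusted p = 4.06e-05), rose in KO cells. CROT, which makes carnitine esters of shortened chains for export from peroxisomes, had 166, 182 and 143 CPM in KO libraries, 73.9, 63.5 and 57.4 in OE libraries and 120.4, 119 and 129 in control libraries. It changed by -0.92 ± 0.10 (adjusted p = 5.80e-07) in OE cells, where the oxidase ACOX3 (-0.45 ± 0.12, adjusted p = 0.00821) fell too.

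IDH1, which makes cytosolic NADPH from isocitrate, had 896, 887 and 909 CPM in KO libraries, 312, 277 and 301 in OE libraries and 490.0, 462 and 442 in control libraries. The groups did not overlap, at 0.95 ± 0.08 (adjusted p = 6.60e-10) in KO cells and -0.65 ± 0.08 (adjusted p = 1.52e-06) in OE cells. CYB5A, an electron donor of desaturases, had 126, 128 and 117 CPM in KO libraries, 31.2, 28.1 and 36.8 in OE libraries and 54.5, 46.8 and 45.3 in control libraries. It changed by 1.34 ± 0.11 (adjusted p = 5.42e-10) in KO cells and -0.60 ± 0.11 (adjusted p = 0.000359) in OE cells, in the same order of groups as FADS1. The desaturases SCD (-0.60) and SCD5 (-0.36) went the other way in KO cells. Of 7 tested genes listed under NADPH and acetyl-CoA supply 3 rose and 2 fell in KO cells (3 and 1 corrected), and 1 rose and 2 fell in OE cells. The list also holds the sterol carrier STARD4, which is 1 of the 2 falls in KO cells and the 1 rise in OE cells. The pyruvate carboxylase PC fell in KO cells (-0.52 ± 0.10, adjusted p = 9.80e-05), which did not pass when corrected (-0.03), the pentose phosphate enzyme PGD fell in OE cells (-0.27 ± 0.08, adjusted p = 0.0123), and the sterol carrier STARD4 was lower in KO cells (-0.70 ± 0.17, adjusted p = 0.00122) and higher in OE cells (0.47 ± 0.15, adjusted p = 0.0372).

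Among 11 tested genes of lipogenic transcription control 4 fell and 2 rose in KO cells, but 3 fell and 5 rose when corrected. SREBF1, whose product switches on FASN, ACACA and SCD in many tissues, had 146, 157 and 139 CPM in KO libraries, 262, 255 and 226 in OE libraries and 214, 279.9 and 258 in control libraries. It was lower in KO cells at -0.76 ± 0.09 (adjusted p = 3.98e-07), but its transcript is long and rich in GC, and corrected the value was -0.16 (adjusted p = 0.0915). MLXIP, a glucose-responsive factor, changed by -1.04 ± 0.09 (adjusted p = 1.78e-09) in KO cells, corrected -0.30, and by -0.31 ± 0.09 (adjusted p = 0.0115) in OE cells, and its partner MLX rose by 0.71 ± 0.11 (adjusted p = 6.29e-06) in KO cells. INSIG1, which holds the precursor of SREBP in the endoplasmic reticulum, was lower in KO cells at -0.60 ± 0.12 (adjusted p = 0.000204) and higher in OE cells at 0.47 ± 0.11 (adjusted p = 0.00411), and the protease MBTPS2, which releases SREBP, was higher in OE cells at 0.36 ± 0.11 (adjusted p = 0.0168).

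Of the 6 fatty acid receptors and coactivators tested, 4 fell and 1 rose in KO cells (2 and 2 corrected), and 1 rose and 1 fell in OE cells. The receptor PPARD had 49.3, 46.4 and 49 CPM in KO libraries, 109, 126 and 102 in OE libraries and 86.3, 101 and 84 in control libraries, and PPARG had 84.6, 84.7 and 96.7 CPM in KO libraries, 48.2, 48 and 53.5 in OE libraries and 50.2, 47.1 and 50.8 in control libraries. In KO cells PPARD was the lowest and PPARG the highest of the 3 groups, at -0.91 ± 0.10 (adjusted p = 1.18e-07) and 0.84 ± 0.10 (adjusted p = 1.64e-07), and corrected at -0.70 and 0.68. The coactivator PPARGC1B fell too (-0.93 ± 0.16, adjusted p = 2.48e-05, corrected -0.41). In OE cells PPARD rose by 0.31 ± 0.10 (adjusted p = 0.0272) and the partner receptor RXRA changed by -0.38 ± 0.09 (adjusted p = 0.00426).

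Of the 10 genes of mitochondrial fatty acid synthesis, which makes the precursor of lipoic acid, 5 rose and 0 fell in KO cells (6 and 0 corrected), and 0 rose and 1 fell in OE cells. Its acyl carrier protein NDUFAB1 (0.84 ± 0.13, adjusted p = 9.85e-06), the reductase subunit HSD17B8 (1.26 ± 0.23, adjusted p = 6.16e-05) and the lipoyl synthase LIAS (0.80 ± 0.17, adjusted p = 0.000325) rose in KO cells, and the other reductase subunit CBR4 fell in OE cells (-0.42 ± 0.12, adjusted p = 0.0131). NDUFAB1 and HSD17B8 are short, with 1548 and 1158 exon bases, while LIAS has 11318. The bin of the shortest genes stood at a median of 0.518 in KO against control, so the uncorrected rises of NDUFAB1 and HSD17B8 include that trend. Of the 4 tested genes of other elongation and desaturation CYB5A was the only one that passed, in KO cells and in OE cells (2 passed in KO cells corrected).

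Of 15 tested genes of activation, binding and thioesterases 7 rose and 0 fell in KO cells (9 and 1 corrected), and 1 rose and 2 fell in OE cells. The acyl-CoA binding protein DBI had 279.8, 279 and 252 CPM in KO libraries, 113, 121 and 144 in OE libraries and 144, 142 and 128 in control libraries, at 0.97 ± 0.09 (adjusted p = 6.67e-09) in KO cells, and the thioesterase ACOT8 rose by 0.68 ± 0.13 (adjusted p = 0.000128). CD36, a fatty acid receptor, had 3.13, 3.48 and 4.06 CPM in KO libraries, 0.221, 0 and 0.146 in OE libraries and 0.218, 0.421 and 0.449 in control libraries. It passed in KO cells (adjusted p = 6.73e-05), where every library was above all others, but it had 4 counts in the OE libraries in all and 10 in the control libraries, so no fold change is given. In OE cells the synthetase ACSF2 (-0.58 ± 0.08, adjusted p = 1.38e-05) and the transporter SLC27A2 (-0.46 ± 0.13, adjusted p = 0.0167) fell and the thioesterase ACOT9 rose (0.41 ± 0.12, adjusted p = 0.0154).

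Of 17 tested genes of glycerolipid storage and lipolysis 6 rose and 4 fell in KO cells (8 and 2 corrected), and 3 rose and 2 fell in OE cells. LPIN3, the remaining phosphatase of its family, had 17.8, 20.9 and 16.6 CPM in KO libraries, 50.6, 49.3 and 38 in OE libraries and 43.2, 50.9 and 50 in control libraries. It changed by -1.37 ± 0.14 (adjusted p = 1.73e-08) in KO cells, corrected -1.15, so all 3 lipins were lower there. The hormone-sensitive lipase LIPE fell (-0.81 ± 0.16, adjusted p = 0.000182) and the droplet protein HILPDA rose (0.93 ± 0.19, adjusted p = 0.000224) in KO cells. In OE cells the acyltransferase GPAT3 rose (1.14 ± 0.22, adjusted p = 0.000713), the monoglyceride lipase MGLL rose (0.73 ± 0.17, adjusted p = 0.00435) and PNPLA3 fell (-2.01 ± 0.40, adjusted p = 0.000746).

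**Figure D5:**
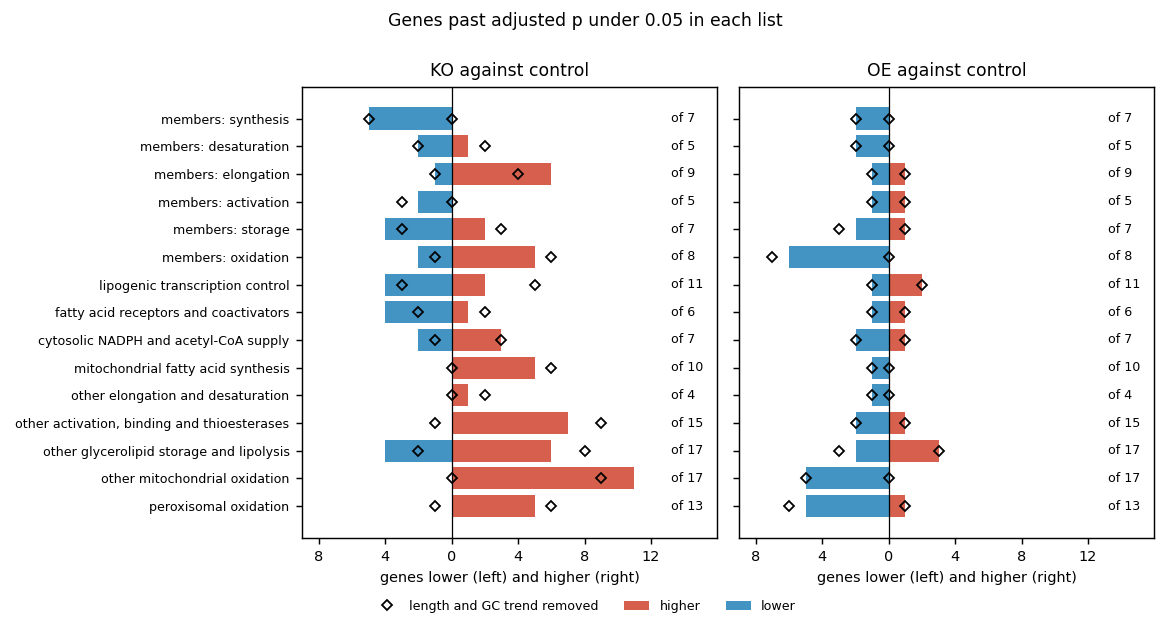
Number of genes higher (red, right) and lower (blue, left) at an adjusted p under 0.05 for the 6 roles of the members and the 9 lists of other pathway genes, in KO against control (left panel) and OE against control (right panel), with open diamonds for counts after removal of the length and GC trend and the number tested at the right of each row. In KO cells 11 of 17 other mitochondrial oxidation genes are higher and 0 lower, and in OE cells 0 are higher and 5 lower.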

How the data were processed

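RNA was poly-A selected, fragmented, copied with random primers and read in pairs of 150 bases, per the labels' protocols. The deposited files hold counts per gene made by the authors with featureCounts 1.5.2 on GRCh38 and Ensembl release 101, per the file headers, whose command leaves the handling of strand, read pairs, overlapping genes and multi-mapping reads at the default. The submitters' processing notes name HISAT2 1.03, Subread, featureCounts 0.1.0 and DESeq2. From these counts edgeR 4.0.16 (R 4.3.3, limma 3.58.1) fitted its quasi-likelihood model to all 9 libraries by group, after TMM scaling and filterByExpr with a minimum count of 10. The common biological coefficient of variation was 10.2%. The fit was tested on simulated data without a trend or with a trend on exon length. The correction for GC content was not tested that way. Corrected values come from a loess curve (span 0.3) of each library on log2 exon length and GC content, used as an offset; GC was known for 99.6% of tested genes. DESeq2 1.42.0 and limma-voom were alternatives.

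Replicate numbers showed no sign of pairing the libraries. No pair of replicates agreed within sampling noise, and OE replicate 3 differed most from its group. The members and lists were chosen with earlier results of these data known. Libraries are listed for up to 4 members per role and comparison by largest called change among those without overlap and with a higher group averaging at least 5 CPM, and for some others chosen after their values were seen. Of the other pathway genes up to 3 per list and comparison are named by smallest p; 1 such gene is not reported here.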

Additional observations from a re-analysis of the deposited data

How the results depend on the processing

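No filter on low counts, limma-voom, size factors or the Wald test of DESeq2, and fits to only the 2 groups compared gave 6689 to 7074 called genes in KO against control, beside 6951. At an adjusted p under 0.01, OE against control called 1431 genes in place of 2493, by construction of the stricter threshold. Removal of the length and GC trend left 6104 called genes in KO against control and changed the sign of MLYCD in KO against control (0.67, adjusted p = 0.00353) and of ACADVL in KO against OE (0.07, adjusted p = 0.459, edgeR). The cause of the length trend was not tested. CRAT in KO against control was also lost with DESeq2's Wald test (adjusted p = 0.0589), and DGAT2 (0.0511) and CPT2 (0.0609) without a filter. In OE against control PLIN3 (0.0229) and ACADVL (0.0247) passed with the trend removed, and ACADVL also with DESeq2 (0.0451) and limma-voom (0.0446).

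Leaving out each library in turn gave 6056 to 7201 called genes in KO against control, with 10 to 14 members higher and 16 to 17 lower. OE against control gave 1729 to 2585 called genes, with 2 to 3 members higher and 13 to 15 lower, and KO against OE gave 6893 to 7673, with 14 to 16 members higher and 15 to 16 lower. Libraries that share a replicate number deviated together no more than others (correlations of -0.0772 to 0.066, beside -0.0859 to 0.109). The numbers thus showed no sign of pairing, but these correlations over all genes cannot exclude a weak shared batch. A fit with the replicate number as a block called 6907 genes in KO against control (13 members higher and 16 lower), 2468 in OE against control (3 and 14) and 7669 in KO against OE (16 and 16), and CRAT in KO against control did not pass (adjusted p = 0.0513). Depth limits ACSL5, whose fold change has the largest error of the members.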
